A study of Mus musculus with 99 samples.

Results

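Among 32 wild-type outer hair cells (OHCs) of the mouse cochlea, 13 had reads of Slc17a8 at 10 counts per 1000000 (CPM) or more and 19 were under 10 CPM. CPM is a gene's read count in a cell, divided by the cell's total count and multiplied by 1000000. These 13 and 19 cells are the sets compared here, out of 99 single cells in the series, and values of Slc17a8 itself are given only to describe the split. The OHCs came from C57BL/6 mice of genotype Slc26a5-CreER/+; Ai9/+ at postnatal day 30. The other 67 cells were converted inner hair cells (cIHCs) at postnatal day 42, from C57BL/6 mice of genotype Slc26a5-CreER/+; Rosa26Tbx2/+, and serve only as a side-by-side level. Cells of both genotypes carried an inducible Cre recombinase driven by Slc26a5, an OHC gene, and were picked by hand for tdTomato fluorescence. The cIHCs are OHCs made to express the transcription factor Tbx2. They differ from the OHCs in age and genotype together, and also in the sex-linked reads given below. OHCs of an earlier study that the design text mentions were not analysed here.

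Slc17a8 encodes VGLUT3, the transporter that fills synaptic vesicles with glutamate. Inner hair cells (IHCs) use it at their ribbon synapses, where otoferlin couples calcium entry to vesicle fusion and the auditory nerve is excited. The transporter runs on the proton gradient that the vacuolar H+-ATPase (V-ATPase) builds across the vesicle membrane. OHCs amplify sound by changing length through prestin, the product of Slc26a5, and make few afferent synapses. They are controlled by efferent fibres through the nicotinic receptor subunits encoded by Chrna9 and Chrna10.

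Slc17a8 lies on chromosome 10 at 89574020 to 89621253, on the minus strand of GRCm38, and no exon of another annotated gene overlaps its exons. The 13 cells held 12.2 CPM at the lowest, 109 CPM at the median and 594 CPM at the highest. In the other 19 cells the lowest and median level was 0, and the highest was 0.347 CPM. The values nearest the threshold were therefore 12.2 CPM inside and 0.347 CPM outside, with 0 OHCs between 1 and 10 CPM. Of the 19 cells, 13 had no read of the gene and 6 had 1 or 2 reads. The cIHCs ranged from 419 to 2979 CPM with a median of 1093 CPM, and 2 OHCs, at 481 and 594 CPM, reached that range. These levels chose the sets and are given as a description.

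**Figure D1:**
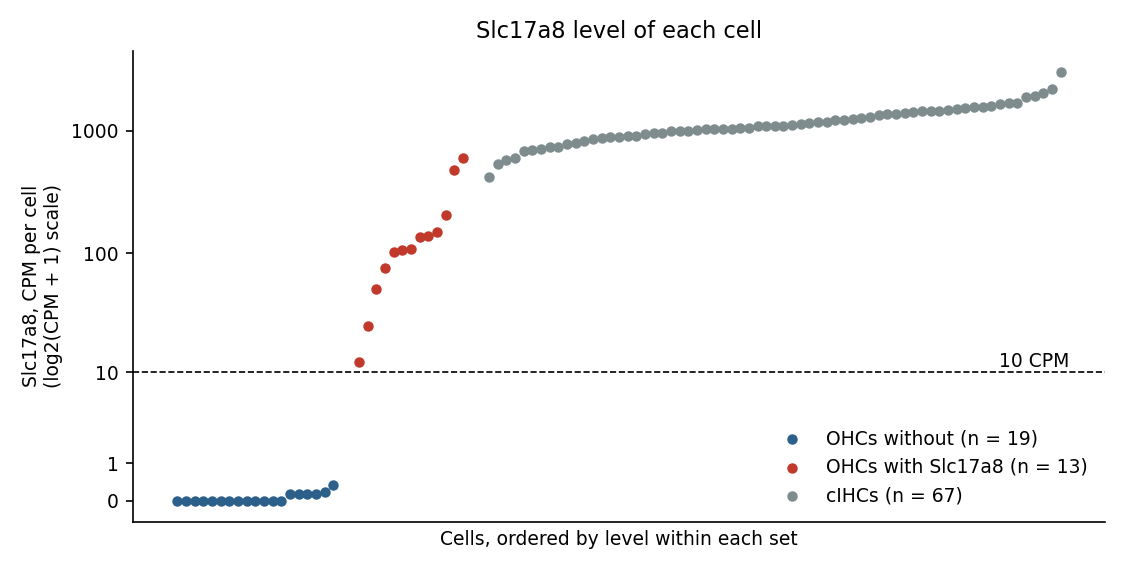
Slc17a8 level of each of the 99 cells on a log2(CPM + 1) scale, with cells ordered by level within each set and the dashed line at the 10 CPM threshold. The 13 OHCs with Slc17a8 lie between 12.2 and 594 CPM, the 19 others at or below 0.347 CPM, and the 67 cIHCs between 419 and 2979 CPM.

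The share of OHCs with Slc17a8 was 40.6% (95% Clopper-Pearson interval 23.7% to 59.4%, which covers counting error only). That share was set by the split. Many other genes also had reads in part of the OHCs only. Of 1835 other genes between 50 and 100 CPM pooled over all 32 OHCs, the median one reached 10 CPM in 53.1% of the cells, with quartiles of 43.8% and 59.4%.

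Every sample is a single cell and the labels do not say which animal it came from, so each set was treated as 1 sample. No p-value or standard error was computed, and every difference below is a description of these cells. Levels of a set are pooled CPM, the summed counts of the set over its summed total. Differences are log2 ratios of pooled CPM, cells with Slc17a8 over cells without. A gene counts as higher or lower when the sets are at least 2-fold apart. The pair share is the percentage of the 247 pairs of 1 cell from each set in which the cell with Slc17a8 held more, with 50% for sets that overlap evenly.

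Depth and the number of detected genes were alike in the sets. Totals were 6264096 to 9287413 counts in the 13 cells and 5656512 to 9046403 in the 19, with medians of 7200088 and 7496334. Genes with reads numbered 5780 to 6736 (median 6119) and 4769 to 8567 (median 6018). After each cell was thinned to 5700000 reads, which left 13 and 18 cells, the medians were 5892 and 5874.5 genes. Mitochondrially encoded genes took a median of 6.32% and 6.75% of counts. Reads of Y-linked genes at 10 CPM or more were present in 9 of 13 and 15 of 19 cells, and Xist reads in 2 and 2. With only the OHCs holding Y-linked reads, some ratios moved across 2-fold or turned, and such values are given for part of the genes only.

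All 32 cells had reads of the defining OHC genes Slc26a5 and Ocm, while others of the list, such as C1ql1 and Lmod3, were missing from some cells of each set. Slc26a5 ranged from 1172 to 2856 CPM (median 1992) in the cells with Slc17a8 and from 994 to 2913 CPM (median 2028) in those without, against 0.303 pooled CPM in cIHCs. Ocm, which encodes the OHC calcium buffer oncomodulin, stood at a pooled 43469 and 45972 CPM. OHC 22 stood apart. It held the highest Slc17a8 of the OHCs, at 594 CPM, the lowest Ocm, at 17896 CPM, and 772 CPM of Epyc, a supporting cell gene that did not pass 1 CPM in any other OHC. OHC 32, among the 19, held the fewest genes with reads, 4769, and 0.142 CPM of Otof.

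Reads of other cell types did not separate the sets. The summed level of 10 supporting cell genes ranged from 0 to 894 CPM in the 13 cells, with the highest in OHC 22, and from 0 to 221 CPM in the 19, with a median of 0 in both. It reached 10 CPM in 3 cells of each set, and Sox2, Otogl, Fabp7, Ednrb and Sparcl1 had at most 3 counts over all OHCs. Summed glia genes ranged from 0 to 122 CPM and from 0 to 174 CPM, with 1 and 5 cells at 10 CPM or more. Summed spiral ganglion neuron genes ranged from 0 to 386 CPM and from 0 to 250.4 CPM, with medians of 2.69 and 13.6 CPM and 6 and 10 such cells. Their defining genes Nefh, Prph, Thy1 and Rbfox3 had at most 3 counts in all, and the reads were those of the overlapping pair Nefl and Nefm. Blood and macrophage genes ranged up to 40.4 and 67.0 CPM, in 1 and 2 cells, with C1qa, C1qb, Tyrobp and Ptprc at 3 counts or fewer.

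Across the transcriptome no gene separated the OHCs with Slc17a8 from those without. Of 9522 genes with at least 10 pooled CPM in 1 or both sets, 0 (0%) had every cell of one set above every cell of the other, in either direction. Pooled levels were at least 2-fold higher with Slc17a8 for 1850 genes (19.4%) and lower for 1755 (18.4%), and the median ratio was 0.02. Pair shares spanned 11.1% to 86.6%, with 5th and 95th percentiles of 35.2% and 66.4%. Only 66 genes had pair shares of 75% or more and 37 had 25% or less.

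Large ratios were more frequent among genes with few reads, which few cells carried. The 1147 genes under 10 CPM over all OHCs were tested only through the set where they were higher, so nothing is read from their ratios. Without them, 14.9% of 8375 genes were higher and 16.1% lower. Among 3096 genes at 10 to 30 CPM, the shares were 25.3% and 25.9%, and the median gene reached 10 CPM in 18.8% of the OHCs. Among 3419 genes at 30 to 100 CPM, the shares were 12.3% and 14.4%, with a median of 43.8% of cells. Among 1350 genes at 100 to 300 CPM, they were 3.04% and 4.00%. Between 300 and 1000 CPM 0.471% of 425 genes lay past 2-fold each way, and of 85 genes at 1000 CPM or more none did.

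**Figure D2:**
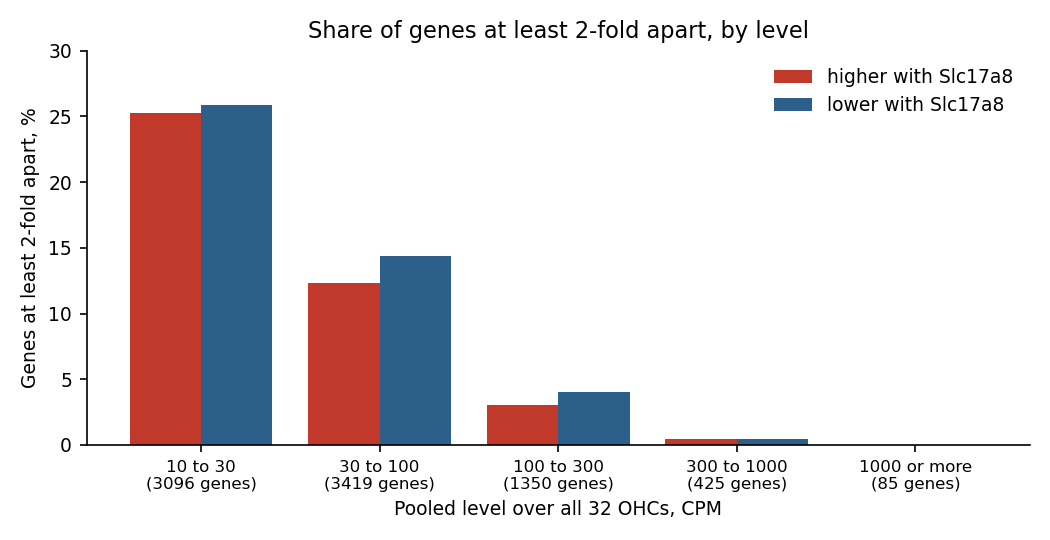
Percentage of genes at least 2-fold higher (red) or lower (blue) in OHCs with Slc17a8, for 5 bins of pooled level over all 32 OHCs, with genes under 10 CPM left out. The bars go from 25.3% and 25.9% at 10 to 30 CPM to 0 at 1000 CPM or more.

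The 510 genes at 300 CPM or more over all OHCs held 4 genes past 2-fold, 0.784%. Calb1 (2.16) and Uqcrfs1 (1.20) were higher with Slc17a8, and Ppp1r27 (-1.71) and Rabgef1 (-1.02) were lower. Uqcrfs1, which encodes the Rieske iron-sulfur subunit of respiratory complex III, had 462 against 201 pooled CPM and a pair share of 78.9%. Rabgef1, an exchange factor for the endosomal GTPase Rab5, had 238 against 485 pooled CPM and a pair share of 21.9%. Uqcrfs1 and Rabgef1 fall outside the rule for named genes and were picked once their values were known.

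**Figure D3:**
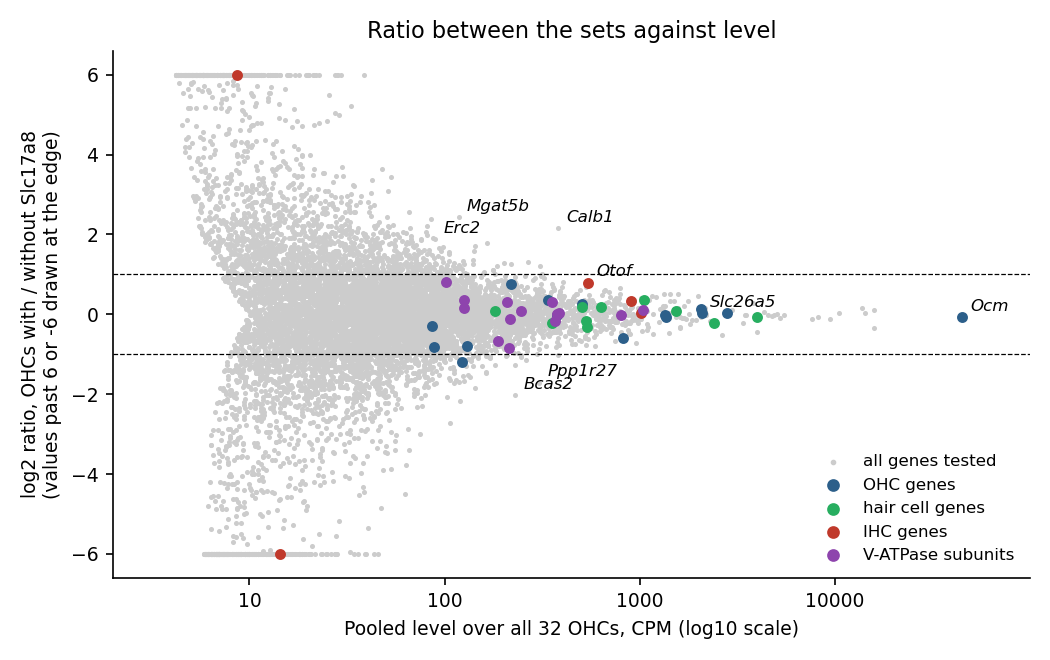
Log2 ratio of pooled CPM (OHCs with over without Slc17a8) against pooled level over all 32 OHCs on a log10 axis, 1 point per gene, with ratios past 6 or -6 drawn at the edge and dashed lines at 2-fold. Points left of 10 CPM were tested only through the set where they were higher, and right of it the spread narrows with level. The OHC, hair cell and V-ATPase genes lie within 2-fold except Elovl2 (-1.20).

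Calb1 had the largest ratio of these 510 genes. It encodes the calcium buffer calbindin-D28k and lies on chromosome 4 at 15881264 to 15908064, on the plus strand. The cells with Slc17a8 ranged from 0 to 2543 CPM with a median of 512 CPM, and the cells without from 0 to 627 CPM with a median of 109 CPM. The sets overlapped: 5 of the 13 cells lay above every cell without Slc17a8, while 3 of the 13 and 7 of the 19 were under 10 CPM. Pooled levels were 699.7 and 156 CPM, a log2 ratio of 2.16 (exact conditional interval 2.14 to 2.18, counting error only) with a pair share of 78.3%. The highest cell was OHC 22, and the ratio was 1.89 without it. OHC 25, also of the set with Slc17a8, had no Calb1 read. In cIHCs the pooled level was 8310 CPM and the median 6394 CPM.

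By pooled CPM, the other calcium-binding genes tested here differed less than Calb1. In a list of 10 calcium buffers and calmodulins that was added after Calb1 had been seen, 8 were tested, 1 was higher, 0 were lower and the median ratio was 0.18. The 1 higher gene was Calb1 itself, which had prompted the list. Of all genes tested, 19.4% were higher and 18.4% lower. Pvalb, which encodes parvalbumin, ranged from 689 to 2584 CPM (median 1731) with Slc17a8 and from 0 to 2572 CPM (median 1323) without, a ratio of 0.51. Ocm had a ratio of -0.08. Calm2 and Calm3, which encode calmodulin, had ratios of -0.13 and -0.44. Necab2, a neuronal calcium-binding gene of OHCs, reached 10 CPM in 12 of 13 and 9 of 19 cells, with medians of 256 and 9.97 CPM. Its ratio was 0.77, and 1.04 in the cells with Y-linked reads and 1.08 with the split at 1 read. With the median of CPM per cell the ratio of Necab2 was 4.68.

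Tbcb and Spryd7 stood at 10 CPM or more in every OHC with Slc17a8. Tbcb encodes tubulin folding cofactor B and lies on chromosome 7 at 30224131 to 30232272, on the minus strand, overlapping Polr2i on the other strand. It ranged from 116 to 497 CPM (median 257) with Slc17a8 and from 0 to 289.9 CPM (median 22) without. Its pair share of 86.6% was the highest of all genes tested, and the ratio was 1.58, yet 7 of the 19 cells without Slc17a8 lay above 116 CPM. Spryd7, on chromosome 14 at 61531993 to 61556886 on the minus strand, ranged from 18.3 to 359 CPM (median 141) and from 0 to 449 CPM (median 2.34). All 13 cells held 10 CPM or more of it against 6 of 19, with a pair share of 85.8%. Its ratio was 1.65, and 2.44 without OHC 32, which held the 449 CPM.

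Mgat5b, a brain-enriched glycosyltransferase that branches O-mannosyl glycans, had the third highest pair share, 84.8%. It lies on chromosome 11 at 116918863 to 116986948, on the plus strand. The cells with Slc17a8 ranged from 0 to 724 CPM with a median of 233 CPM, and the others from 0 to 208 CPM with a median of 0.623 CPM. Of the 13 cells, 7 lay above every cell without Slc17a8, and 2 were under 1 CPM. The ratio was 2.43, and 1.48 with the split at 50 CPM. Unlike Calb1, Mgat5b was low in cIHCs, at 12.2 pooled CPM with a median of 0.

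Bcas2 lay the other way. It encodes a core subunit of the PRP19 complex of the spliceosome and lies on chromosome 3 at 103171655 to 103179166, on the plus strand. The cells with Slc17a8 ranged from 0 to 344 CPM with a median of 50 CPM, and the cells without from 0 to 654 CPM with a median of 331 CPM. Of the 19 cells without, 17 held 135 CPM or more, as did 2 of the 13 with Slc17a8, where 5 cells were under 1 CPM. Its pair share of 11.1% was the lowest of all genes tested. The ratio was -2.02, and -1.09 with the split at 1 read. Of 11 PRP19 complex genes, a list added after Bcas2 was seen, 0 were higher, 2 were lower (Bcas2 and Plrg1, -2.65) and 9 lay between, with a median of -0.21. The share lower is near the 18.4% of all genes and includes Bcas2, which had prompted the list, so nothing is read from it. Plrg1 reached 10 CPM in 3 and 10 cells, and its ratio was -3.24 without OHC 2 and -0.36 with the split at 1 read.

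**Figure D4:**
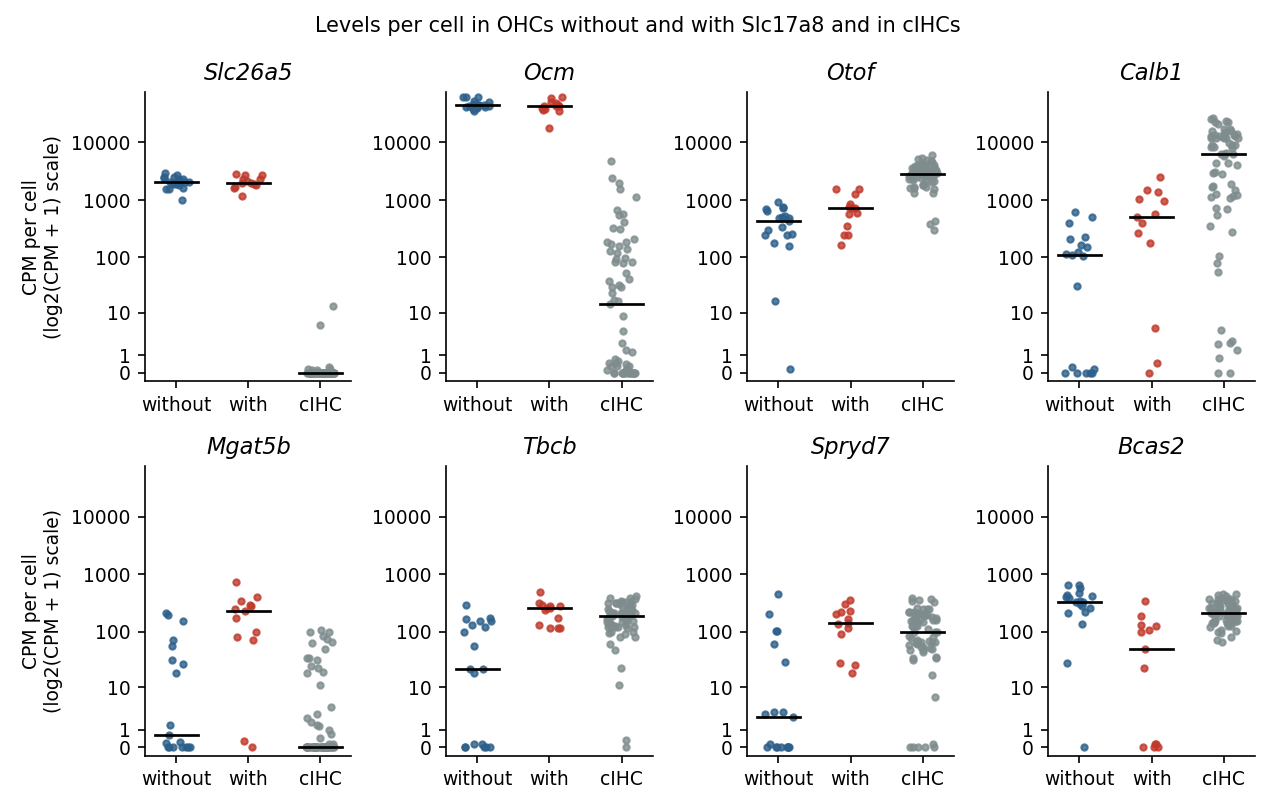
Level per cell of 8 genes in OHCs without Slc17a8 (n = 19), OHCs with it (n = 13) and cIHCs (n = 67), on a log2(CPM + 1) scale, 1 point per cell and a line at the median. The OHC sets coincide for Slc26a5 and Ocm and overlap for the other 6 genes, with medians of 512 and 109 CPM for Calb1 and of 50 and 331 CPM for Bcas2, with and without Slc17a8.

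The other 8 of the 12 highest ratios belonged to genes at 53.9 to 281 pooled CPM in the cells with Slc17a8. Ttc28 had a ratio of 2.80 (81.2 against 11.6 pooled CPM, 10 of 13 and 4 of 19 cells at 10 CPM or more). Ctr9, a scaffold subunit of the PAF1 complex on RNA polymerase II, had 2.09, and 2.80 without OHC 31. Cdk12, a kinase of the RNA polymerase II tail, had 1.60, and 2.24 without OHC 7. These 3 genes reached 10 CPM in 10 or 11 of the 13 cells and in 4 to 8 of the 19. The rule for the 12 highest ratios required 10 CPM in at least 75% of the 13 cells. High counts in that set were therefore fixed in advance for all 12 genes.

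Kpna1, a nuclear import receptor (importin alpha), reached 10 CPM in 11 and 6 cells, a ratio of 1.85 that was 0.62 with the split at 50 CPM. Shisal1 reached 10 CPM in 11 and 6 cells, with a ratio of 1.82. Rragc, a Rag GTPase of amino acid signalling to mTORC1, had a ratio of 1.58, with 10 cells of each set at 10 CPM or more. Its ratio was 0.91 with the split at 1 read and 0.85 at 50 CPM, and it overlaps 4930535I16Rik on the other strand. Pla2g7, the platelet-activating factor acetylhydrolase, had 281 against 81.6 pooled CPM, a ratio of 1.78, and stood higher still in cIHCs, at 640.4 CPM. It overlaps 1700071M16Rik on the other strand.

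Erc2, the active zone scaffold CAST, is the synaptic gene among the 12. It ranged from 0 to 495 CPM (median 117) with Slc17a8 and from 0 to 249 CPM (median 21.2) without. The sets overlapped widely, with 10 cells of each at 10 CPM or more and a pair share of 68.0%. The ratio was 1.89, and 1.01 with the split at 50 CPM, and Erc2 overlaps Gm45645 on the other strand.

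Ppp1r27, among the 12 lowest ratios, encodes an inhibitory subunit of protein phosphatase 1. It ranged from 0 to 353 CPM (median 107) with Slc17a8 and from 0 to 1604 CPM (median 413) without, a ratio of -1.71 with a pair share of 20.6%. Araf, a Raf kinase of the MAP kinase pathway, had medians of 21.1 and 189 CPM and a ratio of -1.84, and overlaps Syn1 on the other strand. Zfp24, a zinc finger transcription factor, had 28.6 against 117 pooled CPM, a ratio of -2.02. It reached 10 CPM in 4 of 13 and 15 of 19 cells. The second count was fixed in advance, since the rule for the 12 lowest ratios required at least 75% of the 19. The ratio of Zfp24 was -2.62 without OHC 2 and -2.68 without OHC 18.

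Lama5, the laminin alpha 5 chain of basement membranes, had medians of 19.4 and 136 CPM and a ratio of -1.67. That ratio was -2.28 without OHC 24 and -0.39 with the split at 1 read. Irs2, an insulin receptor substrate, had a ratio of -1.67, and -0.42 with the split at 1 read, and overlaps 9530052E02Rik on the other strand. Wdr6 had a ratio of -1.59 that was -0.74 in the cells with Y-linked reads, and it overlaps Dalrd3 on the other strand. Ccnl2, a cyclin of splicing kinases, had -1.54, Cdv3 had -1.45, and Pygo1, a nuclear cofactor of beta-catenin, had -1.46. The non-coding genes 5031425E22Rik and 2810002D19Rik had -1.73 and -1.51, and the latter overlaps Api5 and Ttc17 on the other strand. Each of these genes reached 10 CPM in at least 6 of the 13 cells with Slc17a8 and was thus not absent from that set.

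**Figure D5:**
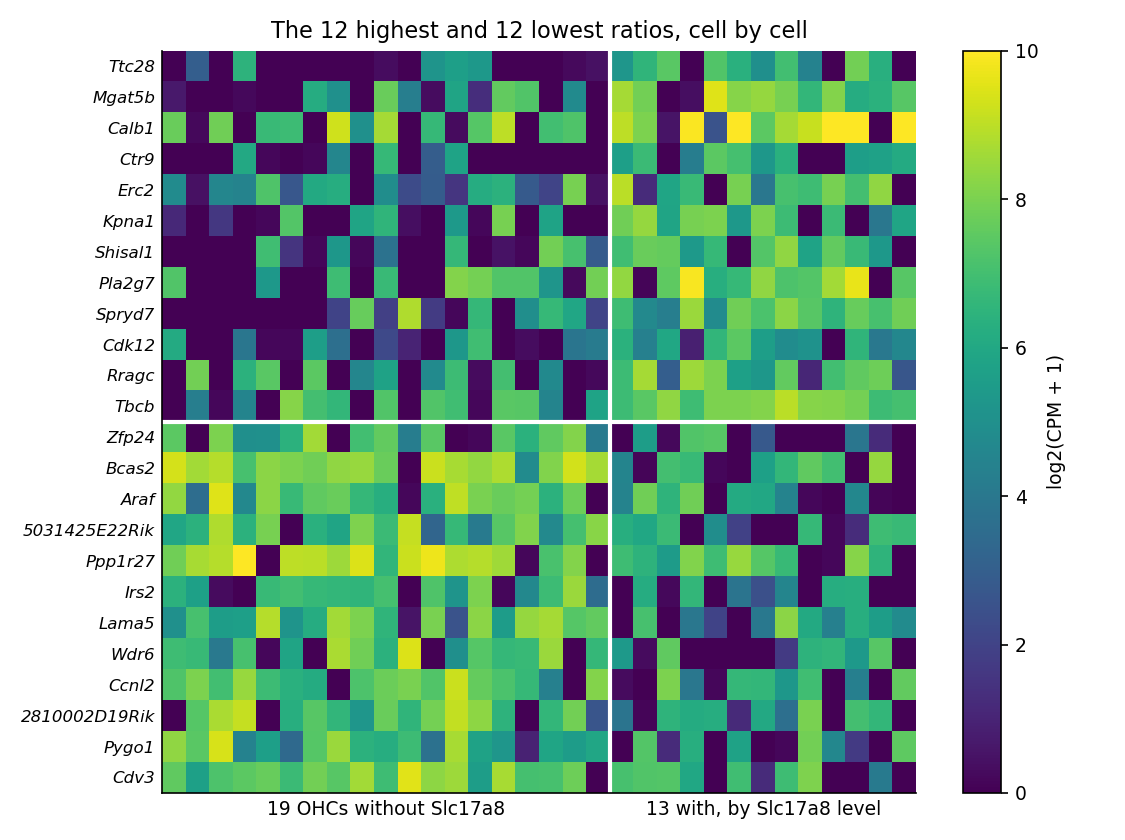
Level of the 12 genes with the highest and the 12 with the lowest ratio in each of the 32 OHCs, as log2(CPM + 1), with colours capped at 10. Columns are ordered by Slc17a8 level within the 19 cells without (left) and the 13 cells with Slc17a8 (right), and Tbcb and Spryd7 are the genes with at least 10 CPM in all 13 cells on the right.

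The sizes of several of these ratios moved with the threshold of the split. With the split at 1 read, which gives 19 and 13 cells, Zfp24 had -1.07, 5031425E22Rik -1.10, Araf -1.25, Ctr9 1.08 and Ttc28 2.17. With the split at 50 CPM, which gives 11 and 21 cells, Shisal1 had 1.16 and Ctr9 1.40. None of the 24 ratios turned under any setting that gave a ratio. The median of CPM per cell gave none for Ttc28 and Ctr9, whose median without Slc17a8 was 0. These genes were picked as extremes of the same cells that the settings largely reuse, so a turn was unlikely from the start.

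The remaining genes with the highest pair shares were Snph, Gsk3b, Lrp6, Slc45a4 and Xirp2. Gsk3b, the kinase that marks beta-catenin for degradation, stood at 262 to 1124 CPM (median 611) with Slc17a8 and 43.8 to 724 CPM (median 256) without. All 32 cells held it, and its pair share was 81.4% although the ratio, 0.81, was under 2-fold. Xirp2, an actin-binding protein of stereocilia, ranged from 12.6 to 985 CPM (median 393) and from 0 to 462 CPM (median 129.8), with a ratio of 1.32 and a pair share of 81.0%. It overlaps Gm13601 on the other strand. Snph, or syntaphilin, which anchors mitochondria to microtubules, reached 10 CPM in 8 of 13 and 2 of 19 cells, with a ratio of 2.82. One cell, OHC 20, held 79.4% of its counts in the cells without Slc17a8, and the ratio was 5.01 without that cell and 1.89 with the split at 1 read. Slc45a4, a transporter of the SLC45 family, had medians of 104 and 0.965 CPM and a ratio of 2.55, which was 3.16 without OHC 19 and 1.44 with the split at 50 CPM.

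Lrp6, a Wnt co-receptor, reached 10 CPM in 11 of 13 and 6 of 19 cells, with a ratio of 1.55. It was 2.54 without OHC 15, which held 52.6% of the counts of its set, and 0.96 with the split at 1 read. Because Lrp6, Gsk3b and Pygo1 act in Wnt signalling, 15 Wnt co-receptor and beta-catenin destruction complex genes were added as a list after these values were seen. Of its 12 genes tested, 4 were higher (Lrp6, Axin1, Dvl1 and Dvl2), 1 was lower (Pygo1) and 7 lay between, where 19.4% and 18.4% of all genes were higher and lower. Lrp6 and Pygo1 had prompted the list and are part of the counts, so nothing is read from the counts. The median was 0.51 over 14 genes, and 0.07 without OHC 22. Axin1, the scaffold of the destruction complex, reached 10 CPM in 8 and 3 cells, with a ratio of 2.78 that was 4.08 without OHC 31. Dvl1 had 1.36, which was 3.28 without OHC 9 and under 2-fold, 0.68, with the split at 1 read. Dvl2 had 5.35, and 7.59 without OHC 17. Both dishevelled genes had medians of 0 in both sets. Ctnnb1, beta-catenin itself, had a ratio of 0.22.

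The other 7 genes with the lowest pair shares were at 178 pooled CPM or less in the cells without Slc17a8, and all but Wdsub1 reached 10 CPM in at most 2 of the 13 cells. Wdsub1 had medians of 25.2 and 180.2 CPM and a ratio of -2.17. Gfm1, a mitochondrial translation elongation factor, reached 10 CPM in 0 of 13 cells, which allows a share of up to 23.1%, and in 9 of 19. Its highest level was 0.368 CPM with Slc17a8 and 431 CPM without, for a ratio of -10.62 that was -1.97 with the split at 1 read, and it overlaps Lxn on the other strand. Borcs8, a subunit of the BORC complex that positions lysosomes, the splicing factor gene Prpf38b, 5830448L01Rik and 4930430F08Rik each reached 10 CPM in 1 of 13 cells and in 12 or 13 of 19. Their ratios, -3.89, -2.61, -4.28 and -4.10, rested on that 1 cell. Without it they were -7.52 (OHC 26), -10.71 (OHC 26), -7.39 (OHC 22) and -8.19 (OHC 28). Gm38157 reached 10 CPM in 2 and 13 cells, with a ratio of -5.35, and -6.12 and -6.33 without OHC 18 and OHC 28. With the split at 1 read, the ratios were -2.27 for Gm38157, -1.33 for 5830448L01Rik, -1.48 for 4930430F08Rik and -0.81 for Borcs8. Borcs8 overlaps Mef2b on the same strand and 4930430F08Rik overlaps Cep290 on the other strand.

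IHC genes other than Slc17a8 were counted next. Of 10, 5 were tested, 1 was higher (Atp2a3), 1 was lower (Dnajc5b) and 3 lay between, with a median ratio of 0.18 over 6 genes against 0.02 for all genes. The counts, 1 of 5 each way, are near the shares of all genes, 19.4% and 18.4%, and say nothing particular about these members. Atp2a3 was under 10 CPM over all OHCs and was tested only through the set where it was higher, so nothing is read from its ratio. Otof, which encodes otoferlin, ranged from 162 to 1550 CPM (median 721) with Slc17a8 and from 0.142 to 928 CPM (median 424) without. Cells at the top were mostly from the first set, where 3 of 13 lay above every cell without Slc17a8. The ratio was 0.79, and 0.68 without OHC 22, with a pair share of 72.1%, and both sets stayed under the 2956 pooled CPM of cIHCs. Calb2 (calretinin) and Cabp2, a calcium sensor of the IHC calcium channel, had ratios of 0.33 and 0.03.

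Atp2a3, a sarco/endoplasmic reticulum calcium pump, had reads in 3 of 13 cells, at 26.3 CPM in OHC 11, 63.9 CPM in OHC 2 and 165 CPM in OHC 1, and in 0 of 19, which allows a share of up to 15.8%. The ratio was at least 9.92 against a floor of 3 counts over the set, and at least 8.48 without OHC 1. With the split at 50 CPM, where OHC 11 falls in the other set, it was 3.85. In the same order these 3 cells held 12.2, 76.4 and 107 CPM of Slc17a8. OHC 22 and OHC 25, with the most Slc17a8 at 594 and 481 CPM, had no Atp2a3 read. Those levels chose the sets, so nothing is read from their order. Dnajc5b, a vesicle chaperone of the cysteine string protein family, reached 10 CPM in 0 of 13 and 3 of 19 cells, a ratio of at most -9.70. It was at most -8.81 without OHC 7, it was -0.56 with the split at 1 read, and the gene overlaps 1700064H15Rik on the other strand. Fgf8 had a highest level of 3.36 CPM in any OHC.

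Rprm, Slc7a14 and Shtn1 had 0 counts in all 32 OHCs, which allows a share of cells of up to 9.38%, and Tbx2 had at most 3 counts. In cIHCs these 4 genes had 205, 93.9, 260.0 and 731 pooled CPM, and Tbx2 reads of the native gene and of the added allele cannot be told apart. The same held for 8 genes that are on in cIHCs (Lce6a, 2210017I01Rik, Slc10a7, Cd59a, Cib3, Ptprz1, Tpbgl and Ntrk2), a list taken from earlier results of these data. Each had at most 3 counts over all OHCs, and their summed level in cIHCs was 3396 CPM. So the OHCs with Slc17a8 lacked reads of these genes as the other OHCs did.

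Most OHC genes lay within 2-fold in the sets. Of 15, 0 were higher, 1 was lower (Elovl2) and 14 lay between, with a median of -0.03. Of all genes tested, 19.4% were higher and 18.4% lower, but of those at 300 CPM or more only 0.784% lay past 2-fold. Most of the 15 stood at that level, so the count says nothing particular about OHC genes. Genes above 1000 CPM in both sets were close to even, with ratios of 0.02 for Slc26a5, -0.07 for Lbh, 0.14 for Aqp11, 0.03 for Sri and -0.03 for Strip2. Meikin had -0.81, and -1.14 in the cells with Y-linked reads. Lmod3 had -0.80, which was -1.65 with the split at 1 read and -0.46 with the split at 50 CPM. Atp8b1 had -0.29, with medians of 0.556 and 63.1 CPM. Its ratio was -6.83 with the median of CPM per cell and 0.33 in the cells with Y-linked reads. Elovl2, a fatty acid elongase, had medians of 15.9 and 124 CPM and a ratio of -1.20, which was -0.11 in the cells with Y-linked reads, -0.17 with the split at 1 read and -0.79 with the split at 50 CPM. Chrna9 ranged from 71.5 to 1641 CPM (median 636) with Slc17a8 and from 278 to 1658 CPM (median 800.0) without, a ratio of -0.60, while its partner Chrna10 had 0.25 and overlaps Art1 on the other strand. Of 5 efferent synapse genes, 4 were tested and none lay past 2-fold. All 4 stood at 100 CPM or more, where few genes did: at 100 to 300 CPM, 3.04% were higher and 4.00% lower.

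Genes that all hair cells share also lay within 2-fold. The 10 ratios went from -0.33 (Rbm24, a splicing regulator) to 0.37 (Tmc1, a pore subunit of the mechanotransduction channel), with a median of -0.01. All but Ptprq stood at 300 CPM or more over all OHCs, where only 0.784% of all genes lay past 2-fold. Their evenness is therefore not particular to them. Myo7a, the myosin of the stereocilia, had a ratio of -0.17, and Pou4f3, the transcription factor that hair cells need to survive, had 0.19.

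Genes for the release site showed no common direction. Of 14 ribbon synapse genes, 8 were tested, with 1 higher (Erc2), 1 lower (Cabp4) and 6 between, and a median of -0.13 over 11. Of all genes tested, 19.4% were higher and 18.4% lower, so these counts say nothing particular about the members. Cacna1d, the pore subunit of the hair cell calcium channel, stood at 277 to 1401 CPM (median 815) with Slc17a8 and 75.7 to 1379 CPM (median 554) without, a ratio of 0.43 with a pair share of 68.0%. It overlaps Chdh on the other strand. Ctbp2, whose RIBEYE isoform builds the ribbon, had 0.10 and overlaps Fgfr2. Cabp4, a calcium channel modulator, had -2.0 from 2 and 7 cells at 10 CPM or more, with -4.42 without OHC 1 and -0.33 with the split at 1 read. Rims1, Cabp1 and Unc13b had at most 3 counts.

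Of 14 vesicle fusion genes, 9 were tested, with 2 higher (Vamp1 and Syt7), 2 lower (Vamp2 and Napb) and 5 between, near the shares of all genes (19.4% and 18.4%). The median was 0.19 over 11, and -0.80 over 6 with the median of CPM per cell. Vamp2, a vesicle SNARE, ranged from 0 to 201 CPM (median 75.3) with Slc17a8 and from 0 to 449.9 CPM (median 192) without. Its ratio was -1.29 with a pair share of 26.3%, and it was -0.62 with the split at 1 read and -0.90 in the cells with Y-linked reads. Vamp1 reached 10 CPM in 2 cells of each set, and its ratio of 1.5 turned to -0.57 without OHC 22 and to -0.50 in the cells with Y-linked reads. It was 3.71 without OHC 9 and 0.49 with the split at 1 read. Syt7 reached 10 CPM in 5 and 2 cells, with a ratio of 1.72 that was 4.33 without OHC 17, 1.03 without OHC 24, 0.89 in the cells with Y-linked reads and 0.75 with the split at 1 read. Napb, an adaptor of SNARE disassembly, had -1.91 with medians of 0.281 and 0.695 CPM. Snap91 and Rab3a, with reads in nearly every cell, had 0.26 and 0.04.

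Glutamate handling genes included no other vesicular glutamate transporter. Slc17a7 had 0 counts in all OHCs and Slc17a6 at most 3. Of 16 genes, 9 were tested, with 2 higher (Slc17a5 and Glul), 0 lower and 7 between, and a median of 0.30 over 10. The share higher is near the 19.4% of all genes. Clcn3, a vesicular chloride-proton exchanger, had medians of 166 and 4.12 CPM and a ratio of 0.96, with 10 of 13 and 9 of 19 cells at 10 CPM or more. Got2, the mitochondrial aspartate aminotransferase, leaned the other way, with medians of 0.119 and 168 CPM. Its ratio was -0.96, and -1.03 in the cells with Y-linked reads. Slc17a5, the lysosomal sialic acid transporter of the same family, had 1.92 from 4 and 2 cells, and 0.75 without OHC 1 and 3.65 without OHC 7. Glul, glutamine synthetase, had 1.60 from 3 and 2 cells, and 0.01 without OHC 25, 2.31 without OHC 9 and 2.76 without OHC 13.

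The 14 V-ATPase genes lay within 2-fold in pooled CPM with the split at 10 CPM and all cells, with a median of 0.06. All 14 stood at 100 CPM or more over all OHCs. Few genes of that level lay past 2-fold: at 100 to 300 CPM, 3.04% were higher and 4.00% lower. Their summed level ranged from 2959 to 6168 CPM per cell (median 4517) with Slc17a8 and from 2535 to 6670 CPM (median 4656) without. The extremes were Atp6v1c1 at 0.82 and Atp6ap2 at -0.85, and these crossed 2-fold under some settings. With the median of CPM per cell they were 6.67 and -1.94. Atp6v1h, at 0.16, was 1.17 with the split at 1 read. Atp6v1c1 was 1.21 in the cells with Y-linked reads, 1.23 without OHC 20 and 1.11 without OHC 31. Atp6ap2 was -1.42 in the cells with Y-linked reads, -1.29 without OHC 5, -1.26 without OHC 24 and -1.13 without the highest cell of each set. Atp6v1g1, a stalk subunit, had 0.10.

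Stress genes that tissue digestion can switch on gave no shared direction. Of 8 tested, 2 were higher (Junb and Egr1), 2 were lower (Fosb and Hspa1b) and 4 lay between, near the shares of all genes (19.4% and 18.4%). The median was -0.28, and 2.10 over the 3 genes that have a ratio with the median of CPM per cell. Egr1 stood at 737 CPM in 1 of the 13 cells, OHC 22, and at 4.72 CPM or less in the 19, so its ratio of 7.14 was -0.09 without that cell and 0.10 in the cells with Y-linked reads. Junb reached 10 CPM in 7 cells of each set, with a ratio of 1.35 that was 1.97 without OHC 3, 0.90 without OHC 11, 0.52 with the split at 50 CPM and 0.75 in the cells with Y-linked reads. Fosb and Hspa1b reached 10 CPM in 1 and 2 of the 13 cells and 4 and 3 of the 19, with ratios of -4.84 and -2.21. The ratio of Fosb was -11.25 without OHC 1 and -3.66 without OHC 32. That of Hspa1b was -1.32 without OHC 6, -1.51 without OHC 7, -4.64 without OHC 28, -0.83 in the cells with Y-linked reads and 8.41 with the split at 1 read, where its direction turned.

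The annotated neighbours of Slc17a8 on chromosome 10, chosen by position, showed no common direction. Gas2l3 stayed under 1 CPM in every OHC and Nr1h4 had no OHC read. Scyl2 reached 10 CPM in 9 of 13 and 6 of 19 cells, with a ratio of 0.42. That ratio was 4.23 with the median of CPM per cell and 0.07 without OHC 16. Actr6 reached 10 CPM in 1 of 13 and 5 of 19 cells, with a ratio of -2.89, and -9.44 without OHC 2 and -1.84 without OHC 29.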

How the data were processed

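Full-length cDNA of single picked cochlear cells was made with the Smart-Seq HT kit after enzymatic digestion of the tissue and tagmented with the TruePrep kit, per the labels' protocols. The authors deposited 1 table of whole-number read counts with 55291 gene symbols in rows and 99 cells in columns. In the 32 OHCs, 35420 symbols were without reads. It has 0 columns that belong to no sample. The submitters' processing notes name HISAT2 2.2.1, StringTie 2.2.1, featureCounts 2.0.1 and genome build mm10. Annotation, strand setting and filters are not given in the sources used here, so reads of genes that overlap on opposite strands cannot be told apart. CPM is not scaled to transcript length, so its order between genes is an order of reads and not of transcripts.

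Cells were grouped by the titles in the labels and split at 10 CPM of Slc17a8 per cell. The split uses measured values, and the members and gene lists were chosen with earlier results of these data known. No pair of OHCs had identical columns, and the closest pair had a chi-square of 416 per degree of freedom. All OHCs were used, and no doublet caller was run because cells were picked singly. Log2 ratios compare summed counts per set, with sums under 3 counts set to 3 and genes at or under 3 counts in both sets left out. Ratio intervals are exact conditional binomial at 95%, and limits for 0 of n cells are 3 of n. Genes at 10 pooled CPM or more in 1 or both sets are called tested, although no significance test was made.

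Genes named are members of 15 lists that a count turns on, the 12 highest and 12 lowest ratios among genes with at least 50 pooled CPM in the higher set and 10 CPM in at least 75% of its cells, and the 8 highest and 8 lowest pair shares. The lists of calcium buffers, PRP19 and Wnt genes were added after values were seen. Values of some list members are part of their lists but are not reported here. Coordinates and exon overlaps come from GENCODE M21 (GRCm38), which holds 96.4% of the symbols and need not be the authors' annotation. Alternatives were other splits, means or medians per cell, sums without the highest cell, TMM (edgeR 4.0.16 in R 4.3.3) and median-of-ratios scaling, no mitochondrial genes, thinned cells, cells with Y-linked reads, leaving out cells with few genes or each cell in turn, and another minimum level. Other steps used Python 3.11.15 with pandas 2.3.3, numpy 2.4.6, matplotlib 3.10.9 and scipy 1.17.1 and were tested on simulated data.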

Additional observations from a re-analysis of the deposited data

How the results depend on the processing

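Under the settings planned, 16.3% to 24.3% of genes were at least 2-fold higher with Slc17a8 and 17.0% to 26.1% lower, and leaving out each OHC in turn gave 19.6% to 20.3% and 18.5% to 19.7%. Among genes of at least 300 CPM, a limit chosen after seeing the data, the shares were 0.392% and 0.392%, which follows from testing 510 genes of high level. Among the 8375 genes of at least 10 CPM over all OHCs, chosen likewise, they were 14.9% and 16.1%. The median of OHC genes ranged from -0.10 to 0.03, and from -0.09 to 0.02 with 1 OHC left out. The median of IHC genes ranged from 0.00 to 0.33 apart from the split at 1 read, where it was 0.64, and from 0.08 to 0.34 with 1 OHC left out; the cause was not tested. Vamp1 turned to -0.50 in OHCs with Y-linked reads and to -0.57 without OHC 22 (at most 3.71, without OHC 9), Egr1 to -0.09 without OHC 22 (at most 9.57, without OHC 31), and Hspa1b to 8.41 with the split at 1 read. Of the 24 highest and lowest ratios, 0 turned and 18 stayed past 2-fold throughout, the others being 2810002D19Rik, Irs2, Kpna1, Lama5, Rragc and Wdr6; all 24 did so with any 1 OHC left out. Of the 16 genes named for pair shares, 0 turned and 13 stayed past 2-fold, the others being Borcs8, Gsk3b and Lrp6. Both groups were picked as extremes of the same cells that the settings largely reuse, so turns were unlikely from the start. Scaling factors were 1.01 and 0.986 by TMM and 1.02 and 0.985 by median-of-ratios. No paired analysis was possible because no test was made, and title numbers number the cells of a genotype without naming an animal. Among cIHCs, numbers 1 to 12 held Y-linked reads and numbers 13 to 67 held Xist reads. With 13 and 19 cells, the ratio of a gene that few cells carry can rest on 1 of them, which the counting intervals do not show.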

Other observations

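Mitochondrially encoded genes, which build the respiratory chain together with nuclear genes such as Uqcrfs1, were alike in the sets. Of 37 genes, 15 were tested and 0 lay past 2-fold, from -0.45 to 0.21 with a median of -0.11 over 33. Of all genes tested, 19.4% were higher and 18.4% lower, but of those at 1000 CPM or more none lay past 2-fold. Evenness of high-level genes is therefore not particular to them. Their summed level per cell ranged from 49808 to 97185 CPM with Slc17a8, with the highest in OHC 22, and from 43642 to 125849 CPM without. The set with Slc17a8 was not closer to cIHCs for every gene named. Lama5 was lower with Slc17a8, at 55.4 against 176 pooled CPM, and lower still in cIHCs, at 6.45 CPM. Ppp1r27 was lower with Slc17a8, at 131 against 428 pooled CPM, and higher in cIHCs than in either, at 624 CPM. Pvalb stood at 1728 and 1215 pooled CPM in the OHC sets and at 248 CPM in cIHCs.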
